A study of Homo sapiens with 2 samples.

Results

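A set of 10 genes that mark or drive the epithelial-mesenchymal transition were followed after delivery of miR-424 to RWPE-1, a line of prostate epithelial cells that are human and noncancerous. They comprised the transcription factors SNAI1, SNAI2, TWIST1, ZEB1 and ZEB2, the cadherins CDH1 and CDH2, and VIM, FN1 and SPARC. The members were all noncontrol probes of an Agilent two-colour whole-genome array whose RefSeq accession belonged to one of these 10 genes, which gave 14 of 42405 probes and 10 of the 13812 genes that were measured on the arrays. The cells were grown in keratinocyte serum-free medium and given 30 nM of either pre-miR-424, the made precursor of that microRNA, or Negative control #1, the precursor serving as control. RNA of both transfections lay on each of 2 arrays, and pre-miR-424 was dyed with Cy5 under normal labelling and with Cy3 in the dye swap. These arrays were technical replicates, so the comparison had 1 replicate, no p-value was computed, and how separate transfections vary cannot be read from them. The time between transfection and RNA extraction is not given in the sources used here.

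In the epithelial-mesenchymal transition, cells loosen their cadherin junctions, change their intermediate filaments and lay down matrix. The factors of the SNAI, TWIST and ZEB families are known to drive it, partly by binding E-box sequences and repressing CDH1, the gene of E-cadherin. A shift from E-cadherin to N-cadherin, the product of CDH2, is called the cadherin switch, and VIM, FN1 and SPARC are widely used as mesenchymal markers. SNAI2 is also known from normal basal epithelial cells.

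The guide strand expected from the transfected precursor is miR-424-5p, which RefSeq (GRCh38.p14) places at chrX:134546680-134546701 on the minus strand. MicroRNAs bind targets mainly through the seed, bases 2 to 8, and 7 mature human microRNAs in the table carried the same seed, AGCAGCA. The sequence of miR-424-5p is shown, with 3 relatives and the opposite strand, because the seed defines which transcripts the transfected agent can pair with. Capitals mark the seed.
miR-424-5p: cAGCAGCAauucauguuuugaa
miR-15a-5p: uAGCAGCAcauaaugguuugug
miR-16-5p: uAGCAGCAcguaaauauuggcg
miR-497-5p: cAGCAGCAcacugugguuugu
miR-424-3p: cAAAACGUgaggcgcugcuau
The first 4 sequences share all bases of the seed and differ after it, whereas miR-424-3p has another seed. Pairing of these seeds with the transcripts of the 10 genes was not analysed here.

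Results are given as log2 ratios of pre-miR-424 over control, so that a positive value means a higher level after pre-miR-424, and the ratio of the dye swap was turned to the same direction. Each value was averaged over the spots of a probe. Measured probes are those that the scanner software marked as well above background in all 4 channels and that had no outlier spot. A called change was a ratio of at least 1.5-fold, 0.585 on the log2 scale, in the same direction on both arrays. For the error of a mean, the SD of the difference between arrays was taken over the measured probes of like brightness, in 10 classes of equal size, and divided by 2. This error ranged from 0.112 in the dimmest class to 0.285 in the brightest, and it includes dye effects of single probes. Across all 25664 measured probes, the ratios of the arrays correlated at only r = 0.157 (Pearson, across probes, which are not independent replicates), and the error of a mean was 0.17.

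All 14 probes of the 10 genes were measured, on 33 spots, with no outlier and no saturated spot among them. None of the 14 probes was past 1.5-fold on both arrays, where 0.849% of all measured probes were, and none of the 10 genes, where 1.01% of all genes were. At 2-fold on both arrays there was likewise none, against 0.14% of probes and 0.101% of genes. Member means lay between −0.29 for VIM and 0.31 for SNAI2. These extremes are close to the 5th and 95th percentiles of the means of all measured probes, −0.29 and 0.29.

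**Figure D1:**
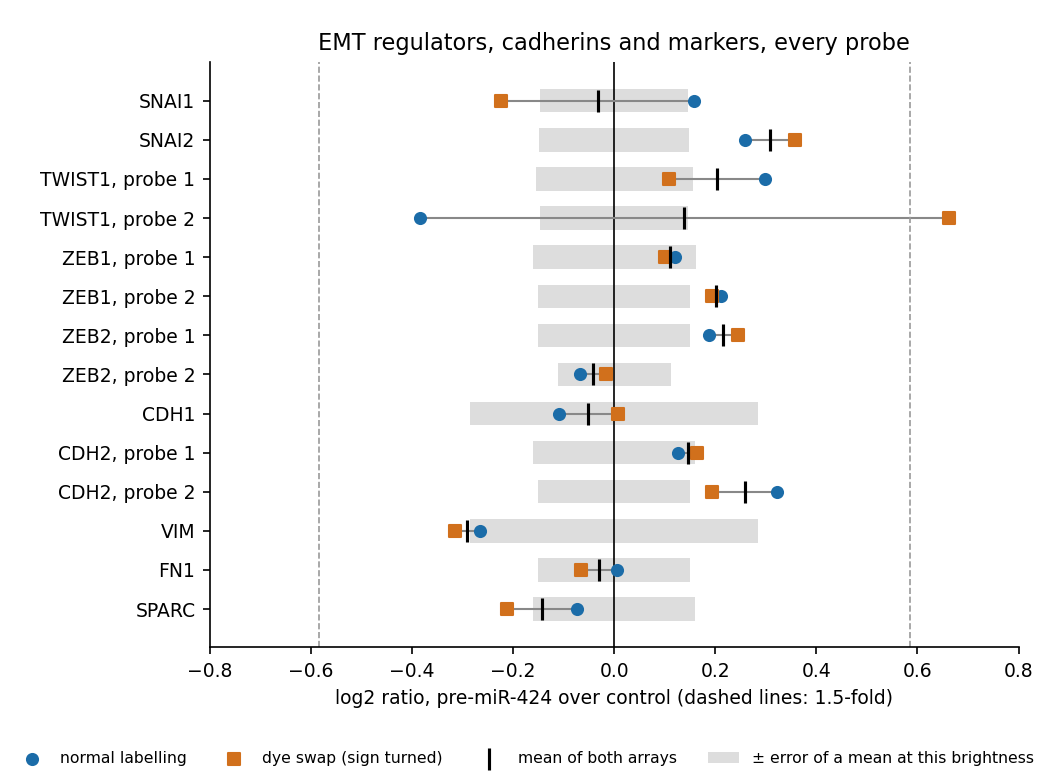
Log2 ratio of pre-miR-424 over control (horizontal axis) for each of the 14 probes, with a circle for normal labelling, a square for the dye swap and a tick for their mean; probe 1 of a gene is its brightest. Grey bars show the error of a mean among probes of the same brightness on either side of 0, and no probe has both arrays beyond a dashed 1.5-fold line.

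Of the 14 probes, 7 were higher after pre-miR-424 on both arrays, where 25.0% of all probes were, and 3 were lower on both, where 26.4% of all probes were. With each gene represented by its brightest probe, SNAI2, TWIST1, ZEB1, ZEB2 and CDH2 were higher on both arrays (5 of 10 genes, against 26.8% of all genes) and VIM and SPARC were lower on both (2 of 10, against 26.7%), where VIM no longer was after median centring in place of loess. SNAI1, CDH1 and FN1 changed sign between the arrays. The mean exceeded its error, with the same direction on both arrays, for 6 of 14 probes, against 28.5% of all probes. These were the probe of SNAI2, the brighter probes of TWIST1 and ZEB2, the dimmer probes of ZEB1 and CDH2, and the probe of VIM. The median over the 10 genes was 0.04, with 0.12 on normal labelling and 0.05 on the swap, and the median over the 14 probe means was 0.12, against medians of 0.00 over all genes and −0.01 over all probes.

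**Figure D2:**
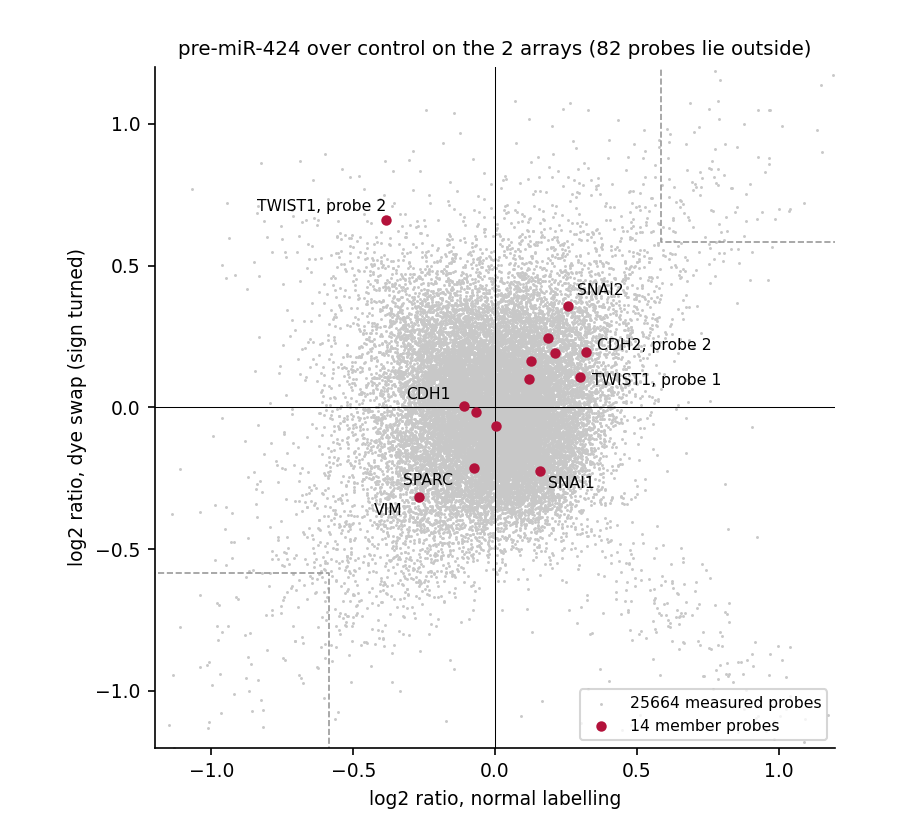
Log2 ratio on normal labelling (horizontal) against the sign-turned dye swap (vertical) for 25664 measured probes in grey and the 14 member probes in red; dashed corners mark 1.5-fold on both arrays and 82 probes lie outside the axes. Members sit inside the grey cloud, with SNAI2 in the upper right, VIM in the lower left (though not after median centring) and the second TWIST1 probe in the upper left, where the arrays oppose each other.

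SNAI2, the gene of the factor SLUG, had the highest mean of the group. Its probe (A_23_P169039, NM_003068) had a log2 ratio of 0.26 on normal labelling and 0.36 on the dye swap, a mean of 0.31 ± 0.07 (SD between the 2 arrays) or 1.24-fold. The normalised log2 level was 13.17 after pre-miR-424 and 12.92 in the control on the first array, and 13.28 and 12.92 on the swap. Both spots of the probe were positive on both arrays, at 0.21 and 0.31 on normal labelling and at 0.41 and 0.30 on the swap. The mean was 2.08 times the error at this brightness, and 95.7% of measured probes had a lower mean. The signal was 156 to 246 times the local background over the channels, so SNAI2 was far from the detection limit.

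SNAI1, which encodes the related factor SNAIL, did not hold a direction. The ratio of its probe (A_23_P131846, NM_005985) was 0.16 on normal labelling and −0.22 on the swap, with a mean of −0.03 ± 0.27 (SD between the 2 arrays). Both spots were positive on the first array, at 0.10 and 0.22, and both were negative on the other, at −0.27 and −0.18. The part of the ratio that turned with the labelling, as Cy5 over Cy3, was 0.19, and whether it exceeds the error of single arrays was not tested. None of the 14 probes was past 1.5-fold on both arrays with opposite signs, where 0.549% of all probes were. The probe was dim, at 4.19 to 6.73 times the local background. No direction can be given for SNAI1, and a difference between SNAI1 and SNAI2 was not tested.

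TWIST1, a basic helix-loop-helix factor, was read by a pair of probes that disagreed. The brighter (A_33_P3414591, NM_000474, 1 spot) gave 0.30 on normal labelling and 0.11 on the swap, a mean of 0.20 ± 0.14 (SD between the 2 arrays) or 1.15-fold, at 40.1 to 62.8 times the local background. The dimmer (A_23_P71073) gave −0.39 and 0.66, the widest gap of all member probes, with an SD of 0.74 between arrays. Both of its spots were negative on normal labelling, at −0.24 and −0.53, and positive on the swap, at 0.73 and 0.59. The part that turned with the labelling was −0.52 and its signal was 3.07 to 7.19 times the background. Its swap value was the only single-array value of a member past 1.5-fold, and the other array opposed it. The positive direction of TWIST1 therefore rests on 1 spot per array.

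ZEB1 and ZEB2 encode zinc-finger homeobox factors that repress epithelial genes and are themselves held down by the miR-200 family. For ZEB1 both probes were higher on both arrays. The brighter (A_33_P3374723, NM_001128128) gave 0.12 and 0.10, a mean of 0.11 ± 0.01 (SD between the 2 arrays) or 1.08-fold, and the dimmer (A_33_P3640690) gave 0.21 and 0.19, a mean of 0.20 ± 0.01 or 1.15-fold. All 4 spots were positive on both arrays, from 0.03 to 0.22 on normal labelling and from 0.04 to 0.24 on the swap. ZEB1 was thus the gene with the closest match between labellings, but the brighter probe's mean was only 0.686 times the error at its brightness and the dimmer's 1.35 times.

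For ZEB2 the probes differed. The brighter (A_23_P142560, NM_014795) gave 0.19 and 0.24, a mean of 0.22 ± 0.04 (SD between the 2 arrays) or 1.16-fold, and 1.44 times its error. Its spots were positive throughout, at 0.32 and 0.05 on normal labelling and 0.28 and 0.21 on the swap. The other probe (A_33_P3243832, 1 spot) gave −0.07 and −0.02 with a mean of −0.04 ± 0.04. It was the dimmest probe of the group, with the lowest signal at 2.05 times the local background, where the offset used in background correction draws ratios towards 0. Averaging both probes lowered the mean of ZEB2 to 0.09.

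**Figure D3:**
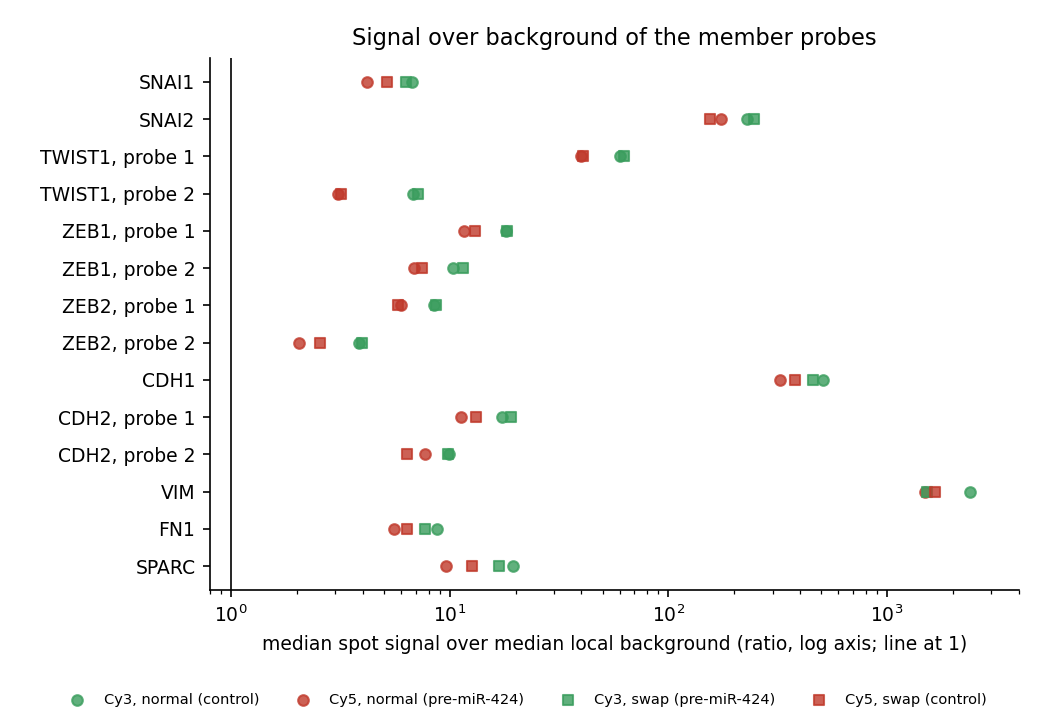
Median spot signal over median local background (ratio, log axis, line at 1) for each member probe in the 4 channels, green for Cy3 and red for Cy5, with circles for normal labelling and squares for the dye swap. The second probe of ZEB2, at 2.05 to 3.96, and the second probe of TWIST1, at 3.07 to 7.19, sit nearest to background, and VIM, above 1486 in every channel, farthest from it.

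RefSeq promoter windows, from 250 bases before to 50 after a transcript start, were at hand for 6 of the 10 genes (ZEB1, ZEB2, CDH2, VIM, FN1 and SPARC) in 13 windows, and not for CDH1, TWIST1, SNAI1 or SNAI2. The E-box CAGGTG, read on both strands and hence also as CACCTG, is the form known to be bound by SNAI and ZEB proteins. It occurred in 2 of the 13 windows, both of ZEB1, and in 20.6% of all 35116 windows in the table. The stretch upstream of the first of the 7 ZEB1 starts, chr10:31318167-31318416 on the plus strand (GRCh38.p14), is shown because ZEB1 was the only one of these 6 genes with this E-box in a window, and both of its probes were higher on both arrays. Capitals mark its E-box, which begins 57 bases before the start (position −57).
ZEB1 upstream: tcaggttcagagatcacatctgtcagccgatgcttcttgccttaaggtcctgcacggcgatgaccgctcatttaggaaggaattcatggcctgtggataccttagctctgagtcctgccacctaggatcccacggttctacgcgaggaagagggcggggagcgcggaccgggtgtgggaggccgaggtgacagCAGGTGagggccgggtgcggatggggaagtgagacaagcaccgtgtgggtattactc
A match of these letters is a description and not a site of binding, and binding was not measured.

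Neither cadherin was past 1.5-fold on any array. For CDH1 the probe (A_23_P206359, NM_004360), printed as 10 spots, gave −0.11 on normal labelling and 0.01 on the swap, a mean of −0.05 ± 0.08 (SD between the 2 arrays) or 0.965-fold. With loess, its spots ran from −0.19 to −0.01 on the first array, with a median of −0.13, all negative. On the swap they ran from −0.08 to 0.10, around a median of 0.00. Under median centring in place of loess the probe gave 0.12 and −0.24, so its sign on each array depended on the normalisation. With an SD over spots of 0.05 on each array, E-cadherin was the most finely sampled member, yet in the brightest class the error of a mean was 0.285. Its normalised log2 level was 14.09 after pre-miR-424 and 14.20 in the control on normal labelling, and 14.17 in both on the swap. That class spans mean log2 intensities of 13.3 to 17.8, and CDH1 lies in its lower part. The next dimmer class had an error of 0.148. The error at the brightness of CDH1 alone was not computed, and its mean was within both errors. A change of E-cadherin mRNA smaller than its error was not detectable with these arrays.

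CDH2, the gene of N-cadherin, was higher on both arrays at both probes. The brighter (A_33_P3214159, NM_001792) gave 0.13 and 0.16, a mean of 0.15 ± 0.03 (SD between the 2 arrays) or 1.11-fold, and the dimmer (A_23_P38732, 1 spot) gave 0.32 and 0.19, a mean of 0.26 ± 0.09 or 19.6% higher. Spots of the brighter probe spread from 0.00 to 0.26 on normal labelling and from 0.07 to 0.26 on the swap, so the spread within an array was wider than that between the arrays. The means were 0.904 and 1.72 times their errors. The signal was 6.41 to 19.1 times the background over both probes, and the normalised log2 level of the brighter probe was 9.36 after pre-miR-424 and 9.23 in the control on normal labelling, against 9.53 and 9.37 on the swap.

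VIM, the gene of the intermediate filament vimentin, had the lowest mean of the group. Its probe (A_23_P161190, NM_003380) gave, with loess, −0.27 on normal labelling and −0.31 on the swap, a mean of −0.29 ± 0.03 (SD between the 2 arrays) or 0.818-fold. All spots were negative, at −0.26 and −0.27 under normal labelling and at −0.34 and −0.29 in the swap. Its normalised log2 level was 16.09 after pre-miR-424 and 16.36 in the control on normal labelling, and 15.86 and 16.18 on the swap. In the brightest class, however, the error of a mean was 0.285, so the mean was −1.02 times its error, and 5.12% of probes had a lower mean. The match between arrays depended on the normalisation. With the scanner software's own ratios the values were −0.52 and −0.09, and with median centring in place of loess they opposed each other, at 0.21 and −0.76, so that only the mean, −0.30 and −0.27 in turn, held its sign. No direction on both arrays can therefore be given for VIM apart from the normalisation used.

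The matrix genes had smaller values. FN1, the gene of fibronectin (A_24_P334130, NM_054034), gave 0.00 and −0.07, a mean of −0.03 ± 0.05 (SD between the 2 arrays), and its spots opposed each other on both arrays, at 0.06 and −0.05 and at −0.27 and 0.14. SPARC, the gene of a collagen-binding matrix glycoprotein also called osteonectin (A_33_P3382924, NM_003118), gave −0.07 and −0.21, a mean of −0.14 ± 0.10 or 0.905-fold. Its spots were all negative, at −0.07 and −0.08 on normal labelling and at −0.16 and −0.27 on the swap. The mean of SPARC was within its error of 0.161, and no direction can be given for FN1.

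The sign of a gene's mean, at its brightest probe or over its probes, held in all 9 alternatives that used both arrays. Not all of these could change it. All 14 member probes were measured without an outlier spot, so weaker or no filters and keeping outlier spots repeated the main values. The authors' ratios gave nearly the same values, and averaging affected only TWIST1, ZEB1, ZEB2 and CDH2. The alternatives left that applied to every gene were median centring, an offset of 16, uncorrected background and the scanner software's ratios. A change in dye balance moves the 2 sign-turned arrays in opposite directions and largely cancels in their mean. Under median centring the mean of CDH1 went only from −0.05 to −0.06, and that of VIM from −0.29 to −0.27. The held sign of a mean is therefore a weak test of the normalisation. The sign on single arrays was less settled. Median centring set the arrays against each other for VIM and for the dimmer ZEB2 probe (−0.22 and 0.23, mean 0.01), and the scanner software's ratios did so for that ZEB2 probe (−0.12 and 0.11). For CDH1, median centring reversed the sign on each array, from −0.11 and 0.01 to 0.12 and −0.24. CDH1 became negative on both arrays with the scanner software's ratios (−0.08 and −0.04), as did FN1 with median centring (−0.03 on each) and without background correction (−0.01 and −0.05). The mean of SNAI2 stayed between 0.29 and 0.34, VIM between −0.30 and −0.27, and TWIST1 between 0.17 and 0.21. ZEB2 moved most, from 0.09 with its probes averaged to 0.30 with the scanner software's ratios. ZEB1 ranged from 0.10 to 0.16 and CDH2 from 0.13 to 0.20, in both cases highest when the probes of the gene were averaged.

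**Figure D4:**
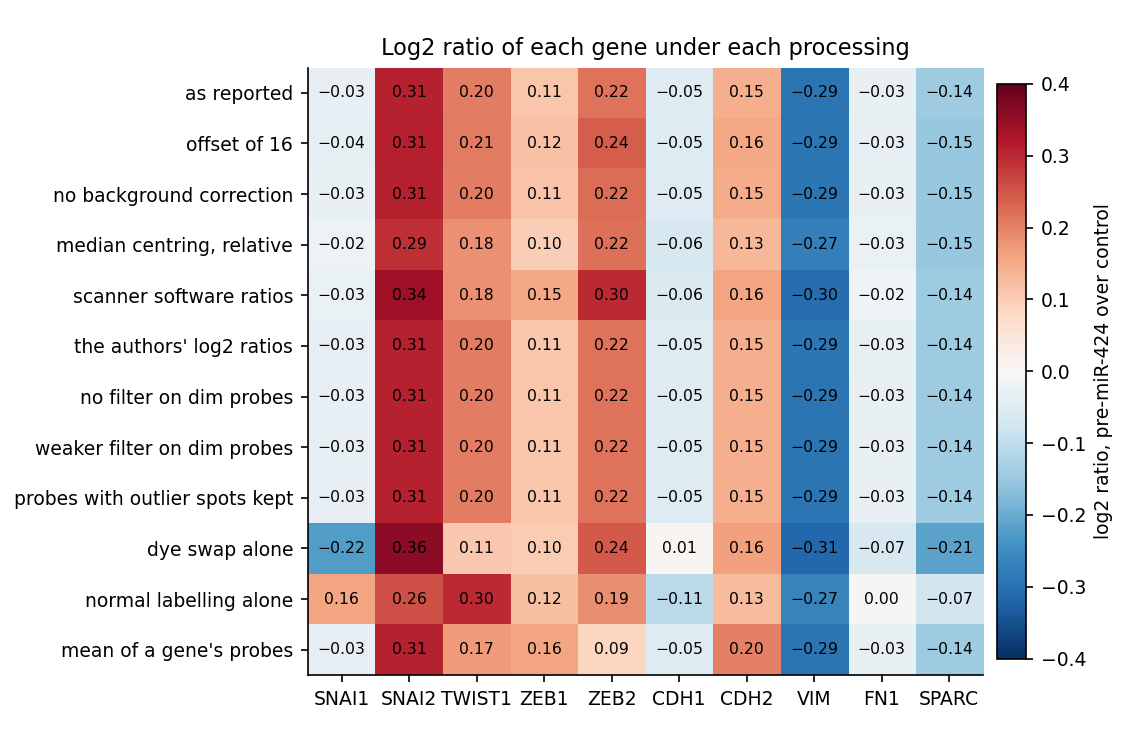
Log2 ratio of pre-miR-424 over control for each gene (columns) under each processing (rows), printed and coloured from blue (lower) to red (higher). Rows with both arrays show means, whose sign holds down each column. Changing the filters left every member value as it was, so it could not alter a sign. A change in dye balance largely cancels in these means, so their held sign is a weak test of the normalisation. Under median centring the arrays behind the VIM mean oppose each other (0.21 and −0.76). In the rows of single arrays SNAI1, CDH1 and FN1 change sign.

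Related genes of the same programme were read from 4 lists, chosen with earlier results of these arrays known. Of 15 other transcription factors tied to the transition, 10 were measured, of which 9 were higher on both arrays and 1 was lower, where 26.8% and 26.7% of all genes were. Their median was 0.14 (0.16 on normal labelling, 0.17 on the swap), against a median of 0.00 over all genes. Among the highest were SOX4 (0.19 and 0.35), an HMG-box factor, and ID2 (0.22 and 0.29), an inhibitor of helix-loop-helix factors. Since ID2 is an inhibitor, its higher value among the 9 cannot be read as favouring the transition. KLF8, a zinc-finger repressor, was the exception, at −0.14 and −0.36. None was past 1.5-fold on both arrays, and FOXC2, GSC, PRRX1 and SNAI3 were not measured.

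Factors known to maintain the epithelial state lay on the other side. Of 13 listed, 10 were measured: 7 were lower on both arrays (against 26.7% of all genes), none was higher on both (against 26.8%) and 3 changed sign. The median of the list was −0.20 (−0.26 on normal labelling and −0.16 on the swap). ELF3, an ETS factor of epithelia, was the lowest, at −0.36 and −0.53. GRHL2, a grainyhead factor that activates CDH1, gave −0.43 and −0.21 at its brightest probe but −0.04 on both arrays at another, and its relative GRHL3 gave −0.31 and −0.23. TP63, the basal cell factor, gave −0.12 and 0.19, and GRHL1 −0.24 and 0.23, so the arrays opposed each other for both. OVOL2, a repressor of ZEB1, gave 0.07 and −0.16. No gene of the list was past 1.5-fold on both arrays.

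A list of cadherin partners in the adherens junction and of further cadherins had no common direction. Of 12 listed, 11 were measured: 4 were higher on both arrays (against 26.8% of all genes), 3 were lower (against 26.7%) and 4 changed sign. Of the 4 higher, only CTNNB1 was not a cadherin, and none of the 3 lower was a cadherin. The median of the list was −0.06 over the means of both arrays but 0.04 on each array alone, so its sign is not settled. The catenins that bind the cadherin tail went apart. CTNNB1, the gene of β-catenin, was at 0.57 on both arrays, just under 1.5-fold, while JUP, the gene of γ-catenin (plakoglobin), was at −0.44 and −0.78. CTNND1, the gene of p120-catenin, gave −0.57 and 0.04 at its brightest probe but was lower on both arrays at another, at −0.66 and −0.10. VCL, which encodes the actin linker vinculin, gave −0.35 and −0.31. Among other cadherins, CDH4 gave 0.37 and 0.07 and CDH11 gave 0.17 and 0.09.

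Of 27 listed genes of the mesenchymal cytoskeleton and matrix, 20 were measured. Of these, 13 were higher on both arrays (against 26.8% of all genes), 3 were lower on both (against 26.7%) and 4 changed sign. The median of the list was 0.14 (0.13 and 0.17 on the arrays). THBS1, the gene of the matrix glycoprotein thrombospondin-1, was highest at 0.40 and 0.44, with 0.35 and 0.25 at another probe. The error of a mean at the brightness of its first probe was 0.285, and under median centring that probe gave 0.71 and 0.12. LOX and LOXL2, which encode collagen crosslinking enzymes, gave 0.35 and 0.45, and 0.48 and 0.28. At the other end were ITGA5, the fibronectin receptor subunit, at −0.30 and −0.54, COL6A1, a collagen VI chain, at −0.17 and −0.48, and the hyaluronan receptor CD44, at −0.07 and −0.24. VIM and SPARC thus lay below the median of this list and FN1 near 0, and a difference between the members and the list was not tested. Under median centring the counts were 7 of 10 higher and 1 lower for the transcription factors, 0 higher and 6 lower for the epithelial factors, and 10 higher and 2 lower of 20 for this list, where 21.9% of all genes were higher on both arrays and 22.9% lower, and CD44 changed sign between the arrays (0.14 and −0.47).

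**Figure D5:**
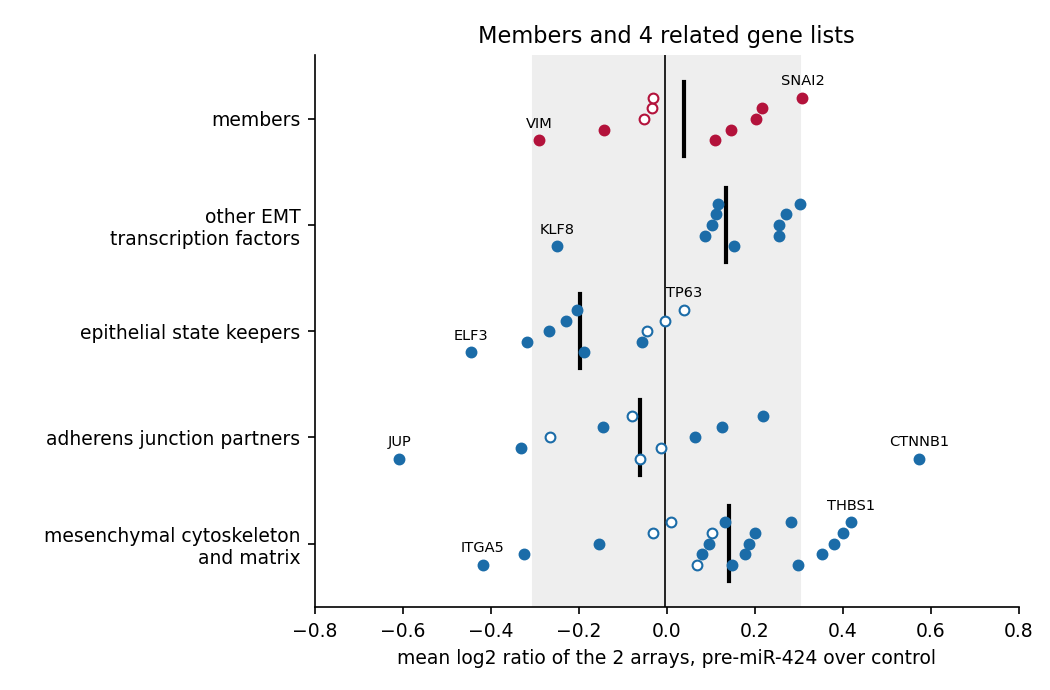
Mean log2 ratio of the 2 arrays (horizontal axis) for each measured gene of the members and of 4 related lists; filled points had the same sign on both arrays, open points did not, short bars are list medians, and the grey band spans the 5th to 95th percentile of all measured genes, −0.30 to 0.30. Most transcription factors lie right of the line at the median of all genes and most epithelial state keepers left of it, with medians of 0.14 and −0.20.

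The labelled cell type was checked against markers. All 6 basal epithelial markers (KRT5, KRT14, KRT15, TP63, ITGA6 and ITGB4) and all 4 general epithelial markers were measured, while of 5 luminal prostate markers 2 were. Among basal markers, ITGA6 was higher on both arrays (0.25 and 0.40), KRT15 (−0.22 and −0.54) and ITGB4 (−0.04 and −0.08) were lower on both, and the arrays opposed each other for KRT5 (0.09 and −1.09), KRT14 (0.00 and −0.43) and TP63. Of the general epithelial markers KRT19 was lower on both arrays (−0.06 and −0.35) and none was higher on both. With median centring the arrays opposed each other for ITGB4 (0.22 and −0.36) and KRT19 (0.19 and −0.61). Summed normalised intensities of the basal markers were 236603.9 and 183064.5 after pre-miR-424, on normal labelling and the swap, and 228116.0 and 280184.0 in the control, with no common direction. Of 3 endothelial markers only CDH5 was measured (0.08 and 0.05) and of 3 leukocyte markers only PTPRC (−0.05 and −0.08). Of 7 fibroblast markers, COL1A1, COL3A1 and DCN were measured, with mean ratios of 0.08 to 0.17, and COL1A2, LUM, PDGFRA and PDGFRB were not. The summed normalised intensity of all 7 was 1999.7 to 2093.3 after pre-miR-424 and 1863.5 to 1865.7 in the control. COL1A1 and COL3A1 are also in the mesenchymal list, and the part of these markers in the values of the members was not tested. In bulk RNA, fewer cells of a type and less RNA per cell cannot be told apart.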

How the data were processed

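Per the file headers, the deposited scanner files were written by Agilent Feature Extraction and give median spot and background brightness per channel as intensity, not normalised, with the software's processed intensities and its log10 ratio of the dyes. A value table of the authors holds log2 ratios. Its columns were Cy5 over Cy3 on both arrays (Pearson 0.991 and 0.988 with the ratios computed here, column medians 0.02 and 0.04). The submitters' processing notes name limma. The steps behind that table are not given in the sources used here.

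Median signals were corrected with normexp (offset 50, limma 3.58.1, R 4.3.3) over all spots, control spots were dropped, and loess was applied within arrays. The offset understates the changes of dim probes. Levels per channel were scaled between arrays by Aquantile. Probes were named through RefSeq accessions (25771 of 42405, GRCh38.p14, names only, since the array design uses another build), with the brightest measured probe standing for a gene. Sequences came from RefSeq tables of GRCh38.p14. All members were named, and of each list the 3 highest and 3 lowest measured genes, of which 1 is not reported here. Members and lists were chosen with earlier results of these data known. The steps were tested on simulated data. At a set change of 0.7 on the log2 scale, 45 of 100 changed probes passed the 1.5-fold rule on both arrays. At 1.2, 96 of 100 did. The rule can therefore miss changes just above its threshold. Tables were computed in Python 3.11.15 with pandas 2.3.3 and numpy 2.4.6. Alternatives tried were median centring, an offset of 16, uncorrected background, the ratios of the scanner software and of the authors, weaker or no filters, outlier spots kept, each array alone, averaged probes and a 2-fold threshold.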

Additional observations from a re-analysis of the deposited data

How the results depend on the processing

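With 1 replicate, the match between arrays speaks for labelling and hybridisation alone, and signal over background limits the dim probes of SNAI1, TWIST1 and ZEB2. The number of member probes past 1.5-fold, 0 with both arrays, was 0 to 1 with single arrays, the 1 being the dimmer TWIST1 probe on the swap (0.66). The median over member genes, 0.04, was 0.0535 to 0.124 with single arrays. The median of the mesenchymal list, 0.141, was 0.194 with the scanner software's ratios and 0.130 to 0.167 with single arrays. The median of the adherens junction list, −0.0612, was −0.0714 with median centring, −0.0762 with the scanner software's ratios, −0.0377 without a filter on dim probes, −0.0668 with probes averaged, and 0.0363 to 0.0402 with single arrays, where its sign changed. The cause was not tested. Under median centring the median of measured probes stood at 0.10 (normal labelling) and −0.18 (swap), and its values are relative to that shift. Both transfections lie on each array, so every value is already a paired ratio within an array. With 1 replicate, no paired test across separate transfections was possible.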
